A study of Mus musculus with 15 samples.

Results

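The genes described here lie on the distal end of mouse chromosome 15 and were measured by RNA-Seq in NMuMG cells, a mouse mammary epithelial line. They were chosen from Dataset 1 as the genes of chromosome 15 that start beyond 60 Mb and have a mean of at least 5 CPM (reads per gene relative to all reads of a library) over the 11 libraries. Myc and the genes whose names begin with Hoxc, Krt, Itg, Col, Slc38, Rpl or Nduf were left out. Of 401 genes listed in this region, 19 were left out by name and 96 were under 5 CPM, which left 286 members of the 13893 genes in the table. The region was picked for a shared drop in 2 of the LIFR knockout clones, so the values of those clones are a description and carry no test.

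All 11 lines of Dataset 1 carry a knockdown of PCBP1, an RNA-binding protein, by short hairpin RNA (shPCBP1), and each gave 1 RNA sample. The controls were the unaltered shPCBP1 line and 3 control (CT) clones treated with Cas9 without a gene-specific guide. They were compared with 3 FAM3C KO clones (FAM3C -/-), 3 LIFR KO clones (LIFR -/-) and 1 double KO clone, labelled as edited in both genes. FAM3C encodes a secreted cytokine-like protein and LIFR the receptor of leukemia inhibitory factor. Every edited line was grown from a single colony, so a line is 1 clone and not a population. Dataset 2 held 2 samples of NMuMG cells with the PCBP1 knockdown and 2 samples of control NMuMG cells without it. The labels give that control as NMuMG with no treatment, whereas the study's text compares shPCBP1 cells with cells carrying a scrambled hairpin (shSCR), so whether the control was transduced is not settled here. Replicates of Dataset 2 are not stated to be separate cultures, so p-values there measure the spread between these samples.

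Genes that sit side by side on a chromosome share its copies. When a segment is lost or gained in a cultured line, the RNA of many genes in it is known to shift together, and genes whose RNA shifts less than that of their neighbours are called buffered. No DNA was measured in the files used here, so the copy number of the region was not tested. The members are spread over unrelated functions, among them the non-muscle myosin heavy chain Myh9, the translation factor Eif4b, the stress transcription factor Atf4, the histone methyltransferase Kmt2d and the Ly6 family of small surface proteins.

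Lifr itself lies near the other end of the same chromosome, at chr15:7090614-7197489 (GRCm38, GENCODE M21), 53.6 Mb before the first member. The members matched to that annotation (285 of 286) span chr15:60818994-103340093. Of the LIFR guide RNAs, exon 6 guide 2 matched no Lifr transcript and was not placed. The other guide RNAs of the LIFR knockouts, with the study's exon numbers, are shown because they cut this chromosome. Their targets lie in coding exons of Lifr, at chr15:7154439-7154458 on the minus strand, chr15:7154514-7154533 on the plus strand and chr15:7166908-7166927 on the plus strand. Each target is written 5′ to 3′ with the PAM in capitals.
exon 2 guide 1: ttattgtctaccatccacgaTGG
exon 2 guide 2: catctgacgatgcatgcaaaCGG
exon 6 guide 1: gtaaagataccgttcagcacTGG

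Some features of the libraries touch every value below. Lifr RNA was at 34.9 CPM in LIFR KO 1, 29.3 in LIFR KO 2 and 14.6 in LIFR KO 3, against 25.8 to 40.2 CPM in the control lines, and RNA level does not show whether the coding sequence was cut. The study's methods state that KO candidates were screened by PCR around or inside the excised fragment and then by immunoblot of the target. The double KO had 4.36 CPM of Lifr and 42.3 CPM of Fam3c. Fam3c was at 26.4, 33.9 and 42.9 CPM in the FAM3C KO clones and at 47.0 to 59.4 CPM in the controls. In LIFR KO 2, LIFR KO 3 and the double KO, differences from the controls fell with the GC content of the transcript (Spearman's rho across 12603 genes of -0.74, -0.73 and -0.69), whereas the other 8 libraries gave -0.28 to 0.22. The same 3 libraries had 7.16% to 8.58% of their listed signal in mitochondrial genes, against 3.14% to 4.06% in the rest, and the part of that share in the results was not tested. Values are therefore given as deposited and after a GC correction. The cells carried the epithelial markers Cdh1 (246 to 362 CPM), Krt8 and Krt18 together with the mesenchymal marker Vim (844 to 1443 CPM). Krt8 and Krt18 lie in the distal region itself and were left out of the members by name. Their GC-corrected log2 differences from the controls were -0.70 and -0.55 in LIFR KO 1 and -0.94 and -0.60 in LIFR KO 2. The epithelial marker Cldn7 was nearly absent (0.107 to 0.525 CPM), and the summed leukocyte and endothelial markers stayed at or below 10.9 CPM and 2.00 CPM in Dataset 1.

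In LIFR KO 1 and LIFR KO 2 the distal genes sat below the controls as a block. Differences here are on the log2(CPM + 0.1) scale, from the mean of the 4 shPCBP1 lines, less the median over genes outside the region. The median over members was -0.45 in LIFR KO 1, which is 73.1% of the shPCBP1 level. In LIFR KO 2 it was -0.83 (56.1%) as deposited and -0.48 (71.8%) after GC correction. The correction left LIFR KO 1 at -0.46. The medians of the 4 control lines ran from -0.14 in CT clone 1 to 0.09 in CT clone 2, with an SD of 0.0965. Members below all 4 control lines numbered 264 of 286 in LIFR KO 1, where 27.6% of all tested genes were below, and 256 in LIFR KO 2, where the share of all genes was 40.6%. After GC correction LIFR KO 2 had 251 of 285 below all controls, against 31.6% of all genes. Because the region was chosen on these clones, nothing is read from those counts.

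LIFR KO 3 and the double KO took no part in the choice. As deposited, their member medians were -0.36 and -0.34, and 176 and 177 members were below every control line, where 40.5% and 40.1% of all genes were. After GC correction the medians were 0.02 and 0.00. The counts below all controls then became 71 of 285 (24.9%) in LIFR KO 3 against 33.1% of all genes, and 82 (28.8%) in the double KO against 33.5%. The lower level of the members in these 2 libraries was thus seen in the deposited CPM and not after the GC correction, while LIFR KO 2 was low under both. In the 3 FAM3C KO clones the medians were 0.06, 0.00 and 0.04, and 31, 75 and 36 members lay below all controls, where 25.3%, 30.3% and 26.8% of all genes did. All these libraries are set against the same 4 control lines.

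**Figure D1:**
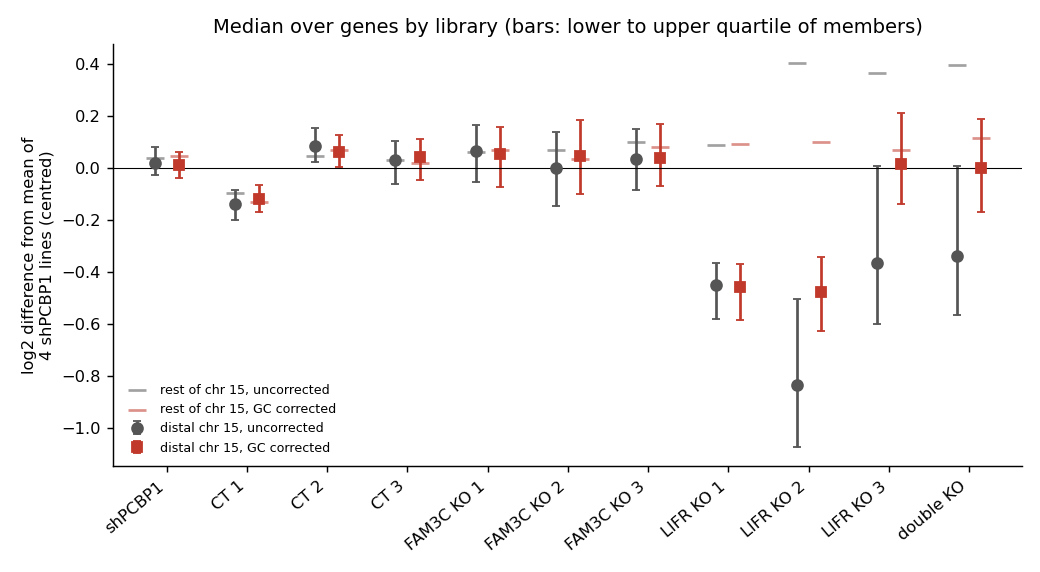
Median log2 difference from the mean of the 4 shPCBP1 lines over the distal chromosome 15 members in the 11 libraries of Dataset 1. Circles are as deposited and squares after GC correction, with bars from the lower to the upper quartile of the members. Dashes mark the rest of chromosome 15, here the genes at 5 CPM or more that start before 60 Mb. The squares sit at -0.46 in LIFR KO 1 and -0.48 in LIFR KO 2 and between -0.12 and 0.06 in the other 9 libraries.

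Chromosome 15 before 60 Mb did not share the lower level in its median. Its 114 genes at 5 CPM or more had a median of 0.09 in LIFR KO 1 and, after GC correction, 0.10 in LIFR KO 2. Single genes there differed far more in both clones, in either direction. GC-corrected values in LIFR KO 1, LIFR KO 2 and LIFR KO 3 were -4.70, -4.61 and 0.12 for Sdc2, and 1.33, 1.78 and -1.69 for Ranbp3l. Medians of the 19 other chromosomes ran from -0.06 to 0.15 in LIFR KO 1 and from -0.06 to 0.18 in LIFR KO 2 after GC correction. The highest in both clones was chromosome 19. There LIFR KO 3 and the double KO were at -0.06 and -0.07, and the controls at -0.03 to 0.09. Along chromosome 15, in bins of 10 Mb of the file's own coordinates, GC-corrected medians for LIFR KO 1 were between 0.02 and 0.13 in each bin up to 60 Mb, -0.41 from 60 to 70 Mb and between -0.54 and -0.41 in the 4 bins beyond. LIFR KO 2 gave -0.10 to 0.31 up to 60 Mb, -0.19 from 60 to 70 Mb and -0.52 to -0.41 beyond. In LIFR KO 3 and the double KO the GC-corrected bins were between -0.08 and 0.28 up to 60 Mb, 0.30 and 0.32 from 60 to 70 Mb, and between -0.07 and 0.08 beyond.

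**Figure D2:**
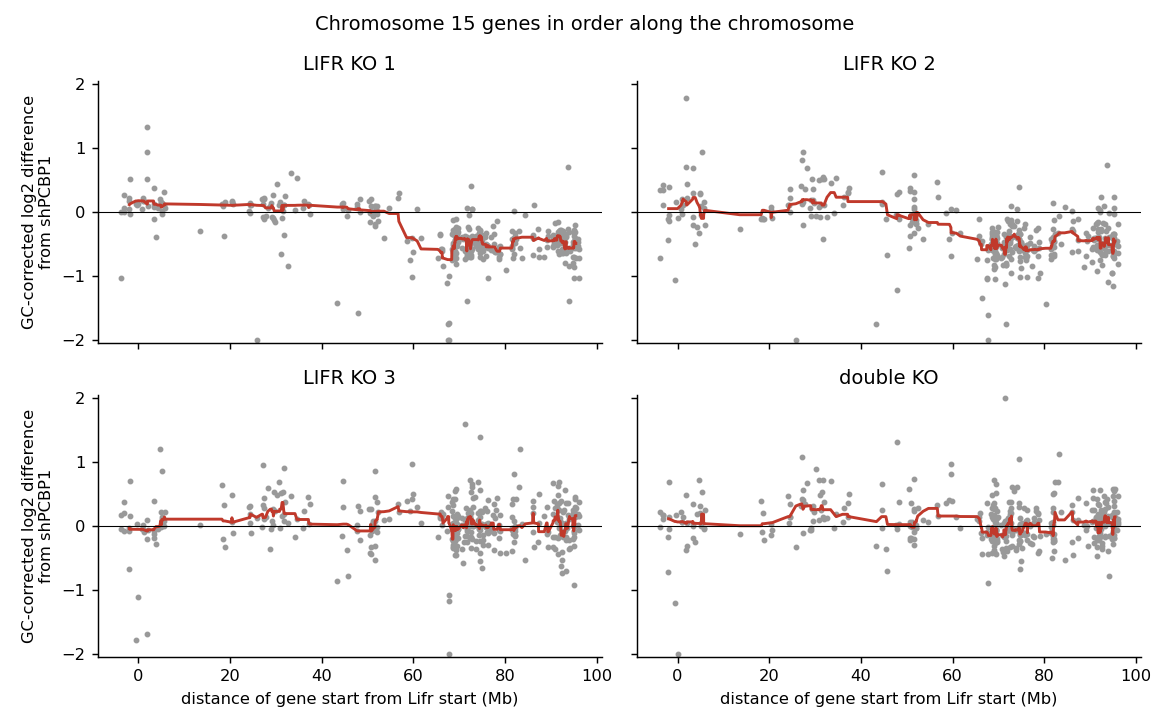
GC-corrected log2 difference from shPCBP1 for chromosome 15 genes at 5 CPM or more (grey points, held at the axis limits where beyond them) against the distance of the gene's start from that of Lifr in Mb, with a running median over 15 genes as a line. The line drops below zero towards the distal end in LIFR KO 1 and LIFR KO 2 and does not do so in LIFR KO 3 and the double KO, whose medians from 60 to 70 Mb of the file's coordinates were 0.30 and 0.32.

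Gene by gene, the lower level did not begin at the 60 Mb bound. The nearest genes before the bound, Washc5, Nsmce2 and Trib1, were at 0.10, 0.01 and -0.13 in LIFR KO 1. The first members were Lratd2 (chr15:60818994-60853778) at -0.39, Cyrib (chr15:63929097-64060478) at 0.21 and Asap1 (chr15:64086857-64382919) at 0.30. From Efr3a (chr15:65787034-65873816) at -0.43 onward, the next members in order were Phf20l1 at -0.77, Ccn4 at -0.41, Ndrg1 at -0.99 and St3gal1 at -0.63. Zfat, farther on, was at 0.06. LIFR KO 2 was less even over this stretch, with GC-corrected values of -0.01 for Efr3a, -0.42 for Phf20l1, 0.05 for Ccn4 and -0.68 for Ndrg1. At the expression bound, Lynx1, Asic1 and Nr4a1, just over 5 CPM, were at -2.31, -0.45 and -0.30 in LIFR KO 1, and C1qtnf6, Cdpf1 and 1700088E04Rik, just under it, at -0.66, -0.57 and -0.60.

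Members were sorted by how far each moved relative to the median of its library. A member was called following when its difference was 0.5 to 1.5 times the library's member median in both LIFR KO 1 and LIFR KO 2, held when it was less than 0.5 times (or above the controls) in both, deeper when it was over 1.5 times in both, and mixed otherwise. On the deposited values 170 members (59.4%) followed, 9 were held, 16 were deeper and 91 were mixed. After GC correction the numbers were 180, 11, 19 and 75, and 146 members followed under both. The 9 held members were held under both, as were 13 of the 16 deeper ones. Eppk1, which had no match in the annotation, was deeper on the deposited values and has no GC-corrected value.

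**Figure D3:**
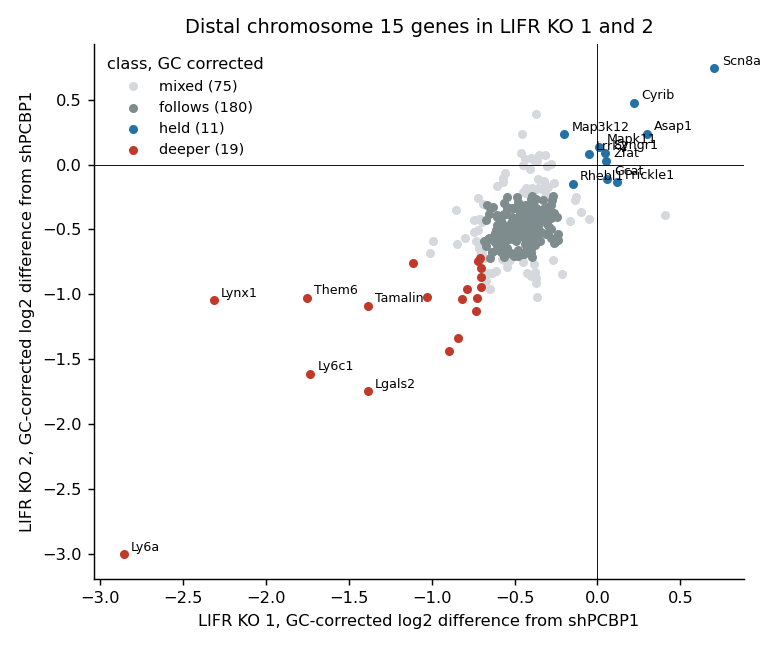
GC-corrected log2 difference from shPCBP1 in LIFR KO 1 (x axis) and LIFR KO 2 (y axis) for 285 distal chromosome 15 members, coloured by class on the same values, with held genes and the lowest of the deeper genes named. Most members form one cloud around -0.46 and -0.48, with 11 held genes near or above zero and Ly6a lowest in both clones.

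Abundant members of the following class included structural, translation and chromatin genes. Myh9 (chr15:77760587-77842175), a motor of cell contraction, had 1599 CPM in the unaltered line, 1286 in CT clone 1, 1542 in CT clone 2 and 1354 in CT clone 3. It was at 973 CPM in LIFR KO 1, 544 in LIFR KO 2, 983 in LIFR KO 3 and 942 in the double KO, all below every control. The FAM3C KO clones, at 1563, 1430 and 1458 CPM, lay within the control range. Relative to genes outside the region, Myh9 was at 68.0% of the control mean in LIFR KO 1. After GC correction it was at 60.9% in LIFR KO 2 and differed by 0.12 and 0.01 (log2) in LIFR KO 3 and the double KO.

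Eif4b (chr15:102073773-102097173), which helps load ribosomes on mRNA, had 793, 804, 822 and 906 CPM in the control lines. It had 594 CPM in LIFR KO 1 and 517 in LIFR KO 2, both under all controls. LIFR KO 3 and the double KO had 767 and 734 CPM as deposited, closer to the controls but also below them. After GC correction Eif4b was at -0.37 in LIFR KO 2, and above the control mean in LIFR KO 3 (0.20) and the double KO (0.16). Eif3l, a subunit of the initiation complex, had 251 to 322 CPM in controls, 214 in LIFR KO 1 and 162 in LIFR KO 2, where its GC-corrected difference was -0.35.

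Kmt2d, which methylates histone H3 at enhancers, was at 701, 545, 703 and 591 CPM in the controls, 508 in LIFR KO 1 and 253 in LIFR KO 2. Its level in LIFR KO 3 and the double KO, 321 and 325 CPM, was also low, and the GC-corrected differences there were -0.19 and -0.22. Srebf2, the transcription factor that turns on cholesterol synthesis, had 260 to 324 CPM in controls, 232 in LIFR KO 1 and 121 in LIFR KO 2. Atf4, which drives the response to amino acid shortage, was at 364, 306, 395 and 381 CPM in the controls, 276 in LIFR KO 1 and 210 in LIFR KO 2. Atf4 turned mixed after GC correction, at -0.18 in LIFR KO 2, while LIFR KO 3 and the double KO were at 0.44 and 0.61. Plxnb2, a semaphorin receptor, had 613 to 794 CPM in controls against 518 and 269 CPM in LIFR KO 1 and 2. After GC correction the differences in LIFR KO 2 were -0.53 for Kmt2d, -0.47 for Srebf2 and -0.69 for Plxnb2. Tcf20, Tmbim6, Tuba1b and Cdc42ep1 were the other most abundant following members, with differences of -0.44 to -0.36 in LIFR KO 1. In LIFR KO 2 they were at -0.24, -0.75, -0.43 and -0.53 after GC correction, and Tmbim6 turned mixed.

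Held members were few. Asap1, which regulates Arf proteins at adhesion sites, was at 119, 101, 112 and 128 CPM in the controls, 140 in LIFR KO 1 and 117 in LIFR KO 2. Cyrib, which restrains Rac1 signalling, was at 98.3, 98.1, 100.4 and 113 CPM in the controls, 118 in LIFR KO 1 and 168 in LIFR KO 2, above every control in both clones. Cyrib and Asap1 are neighbours at the start of the region, before Efr3a. Zfat, a zinc finger protein also in the first 10 Mb, had 14.95 to 16.1 CPM in controls, 16.1 in LIFR KO 1 and 11.8 in LIFR KO 2. So of the 9 held genes, Cyrib and Asap1 lie before Efr3a, whereas Zfat lies beyond it, among genes that were lower in LIFR KO 1.

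The others are farther along, among following genes. Map3k12, a kinase of axon stress signalling, was at 72.7, 65.0, 64.8 and 74.8 CPM in the controls and at 60.4 and 60.5 CPM in LIFR KO 1 and 2. Those values lay just below the controls, and the differences were -0.19 and, after GC correction, 0.23. Scn8a, a sodium channel, varied among the controls from 8.97 to 21.5 CPM and was at 22.3 and 17.6 CPM in the same clones. Mapk11, a p38 kinase, had 21.9 CPM in the line without Cas9 and 14.4 to 14.8 CPM in the CT clones, and at 16.4 and 11.2 CPM in LIFR KO 1 and 2. Lrrk2, a large kinase, had 29.3 to 36.6 CPM in controls, 32.4 in LIFR KO 1 and 40.7 in LIFR KO 2. Prickle1 and Rhebl1 had GC-corrected differences of -0.14 and -0.15 in LIFR KO 2 and 0.12 and -0.14 in LIFR KO 1 as deposited. The held genes had a median control level of 18.2 CPM, against 51.4 CPM for the following genes. As a class they were not at the control level in LIFR KO 3 and the double KO. Their GC-corrected medians there were 0.34 and 0.32, against -0.004 and -0.03 for the following genes. Lrrk2 (-0.53 and -0.54) and Prickle1 (-0.33 and -0.47) were lower in those libraries.

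Of the 16 deeper members, Them6, Lynx1, Ly6a and Ly6c1 are near neighbours. Ly6a (chr15:74994877-74998031), the surface antigen Sca-1, was at 73.1, 72.1, 130 and 137 CPM in the controls. It was at 13.6 CPM in LIFR KO 1, 11.8 in LIFR KO 2, 21.6 in LIFR KO 3 and 48.9 in the double KO, all below the controls, and GC correction left -3.00 in LIFR KO 2, -2.14 in LIFR KO 3 and -0.90 in the double KO. The FAM3C KO clones were at 106, 10.8 and 70.5 CPM, so FAM3C KO 2 was below LIFR KO 1 and LIFR KO 2 too.

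Ly6c1 (chr15:75044018-75048830), a related surface protein, had 46.0, 41.8, 55.4 and 61.9 CPM in the controls, 15.1 and 14.6 CPM in LIFR KO 1 and 2, and 20.7 and 31.2 CPM in LIFR KO 3 and the double KO. In FAM3C KO 2 it was at 22.04 CPM, and in the other two FAM3C KO clones at 63.5 and 48.3 CPM. Lynx1, a Ly6 protein that binds acetylcholine receptors, had 5.74 to 10.5 CPM in controls, 1.34 in LIFR KO 1 and 1.95 in LIFR KO 2. Them6, next to Lynx1, had 66.4 to 106 CPM in controls and 23.6 and 19.04 CPM in the 2 clones. Lgals2, a galectin, had 47.2 to 93.1 CPM in controls and 24.4 and 15.3 CPM. Tamalin, a scaffold protein, had 10.3 to 20.7 CPM and 5.95 and 3.54 CPM. After GC correction the differences in LIFR KO 2 were -1.61 for Ly6c1, -1.05 for Lynx1, -1.03 for Them6, -1.75 for Lgals2 and -1.09 for Tamalin. The deeper genes varied more among the control lines than the following ones, with median SDs of 0.25 and 0.13 (log2).

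**Figure D4:**
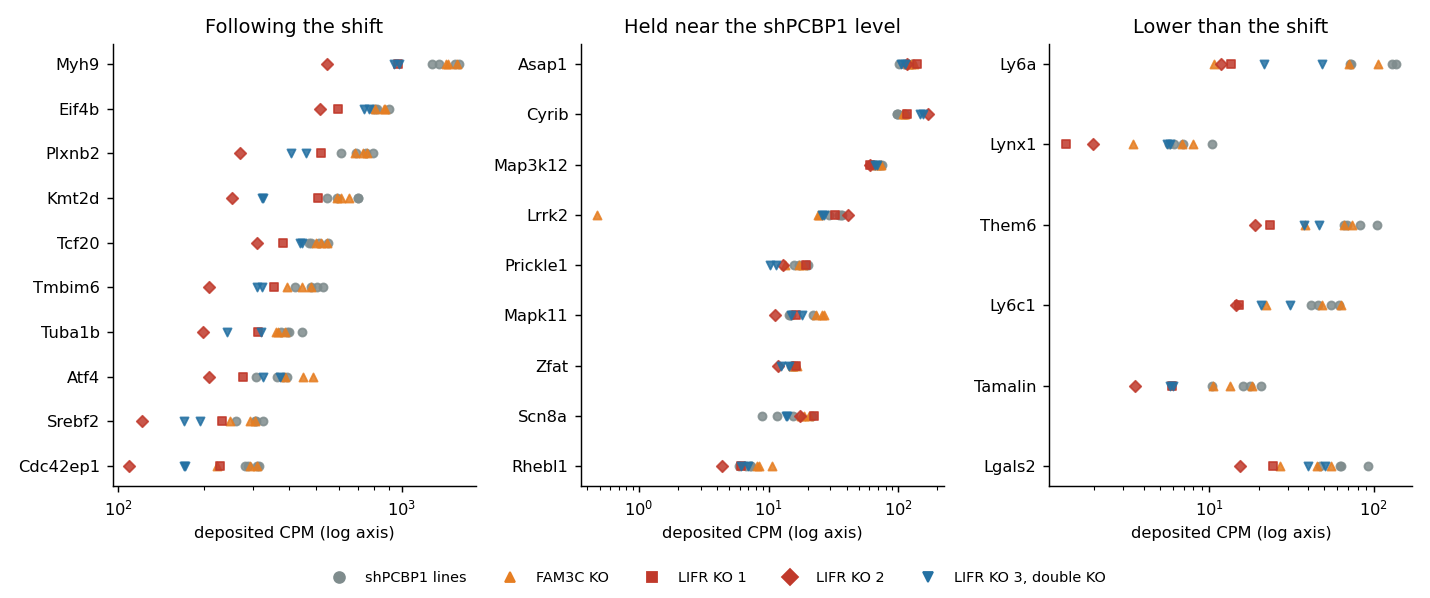
Deposited CPM on a log axis for the most abundant following members (left), the held members (middle) and the lowest of the deeper members (right), 1 point per library. Red points (LIFR KO 1 and 2) lie left of the grey control points for the following and deeper genes; for Asap1 LIFR KO 1, and for Cyrib both clones, lie to the right of them.

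By function, following members were spread over all 10 role lists. As deposited, 7 of 8 translation and ribosome genes followed, 11 of 13 genes of lipid and sugar metabolism, 10 of 15 mitochondrial genes, 10 of 17 chromatin genes and 5 of 13 kinases and signalling genes, beside 59.4% of all members. After GC correction these counts were 6, 8, 11, 14 and 6, beside 63.2% of all members, so the order of the lists changed with the correction. The median difference of a list in LIFR KO 1 ran from -0.58 for the secretory pathway to -0.37 for transcription factors, beside -0.45 over all members. After GC correction in LIFR KO 2 the list medians ran from -0.59 for translation to -0.34 for transcription factors, beside -0.48. Held members appeared in the lists of transcription factors (Zfat), cytoskeleton and adhesion (Asap1) and kinases and signalling (Map3k12 and Mapk11). Cyc1, a subunit of the respiratory chain, had 150 to 178 CPM in controls and 124 CPM in LIFR KO 1. Among RNA processing genes the splicing helicase Ddx23 had 140 to 171 CPM in controls and 124 CPM in LIFR KO 1, and Puf60, which helps choose splice sites, 141 to 167 and 109 CPM. Espl1, the protease separase, and Tubgcp6, a part of the gamma-tubulin ring, were at -0.28 and -0.39.

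No member passed the test between the FAM3C KO clones and the controls. The test was limma on log2(CPM + 0.1) over 12621 genes with FAM3C KO, LIFR KO and shPCBP1 fitted together and Benjamini-Hochberg adjustment, with the study's threshold of 0.07. It called 0 of 286 members, where 0.309% of all genes were called, and 16 members (11 higher, 5 lower) had an unadjusted p under 0.05, or 5.59% beside 10.2% of all genes. The lowest adjusted p among members was 0.22, for Ly6e, an interferon-induced surface protein, at 48.9, 24.7 and 60.9 CPM in FAM3C KO and 73.5, 77.5, 118 and 94.7 CPM in the controls. These 2 groups of Ly6e did not overlap, and its log2 fold change was -1.09 ± 0.30 (SE). Cyth4, at 12.8, 26.2 and 13.1 CPM against 1.68 to 5.74 CPM, had a log2 fold change of 2.12 ± 0.61 (SE, limma adjusted p = 0.23). When the 2 groups were fitted alone, 14 members passed (11 higher, 3 lower), where 8.29% of all genes did (3.94% higher, 4.35% lower). This comparison shares its control lines with the values that chose the region. For description, limma on the same fit placed 180 of 286 members (179 lower) past the threshold in LIFR KO, where 6.47% of all genes were (5.55% lower), and 6 after GC correction, where 0.595% were. The region was chosen for its drop in clones of the LIFR KO group, so nothing is read from these counts.

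Dataset 2 took no part in choosing the region and asks how the same genes differ when PCBP1 is knocked down. Pcbp1 was at 287 and 312 CPM in the NMuMG control and 14.1 and 14.2 CPM with the knockdown. Of 285 members tested by limma, 237 passed the threshold, where 80.1% of all 11384 genes did, so the share called was near that of all genes. Higher with the knockdown were 194 members (68.1%) against 42.1% of all genes, and lower were 43 (15.1%) against 38.0%. The median log2 fold change of the members was 0.31, beside 0.02 over all genes. The 107 tested genes of chromosome 15 that start before 60 Mb were placed likewise, with 78 higher (72.9%), 20 lower and a median of 0.37. Chromosome 15 as a whole had the highest median of the 20 chromosomes (0.31), and chromosome 19 the lowest (-0.37). Medians in 10 Mb bins along chromosome 15 ran from 0.22 to 0.55 with no step at 60 Mb.

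**Figure D5:**
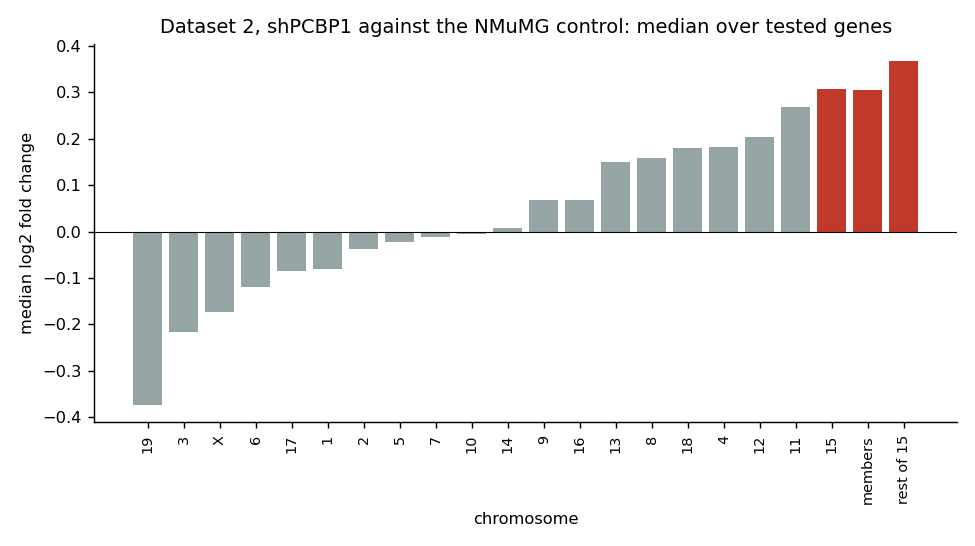
Median log2 fold change over tested genes in Dataset 2, shPCBP1 against the NMuMG control, for each chromosome, for the distal chromosome 15 members and for the rest of chromosome 15. Chromosome 15 has the highest median of the chromosomes, and the members (0.31) lie close to the rest of that chromosome (0.37).

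The genes that followed the drop in LIFR KO 1 and 2 were called in Dataset 2 in 141 of 170 cases (117 higher, 24 lower), beside 237 of 285 members and 80.1% of all genes, so their share was near both. Myh9 was at 367 and 360 CPM in the NMuMG control and 518 and 518 CPM with the knockdown, a log2 fold change of 0.51 ± 0.02 (SE, limma adjusted p = 1.7e-09). Eif4b rose from 380 and 374 CPM to 445 and 442 CPM (0.23 ± 0.02, limma adjusted p = 9.9e-07). Atf4 was at 330 and 323 CPM in the NMuMG control and 329 and 331 CPM with the knockdown (limma adjusted p = 0.48). Among held genes, Asap1 rose by 0.42 and Cyrib by 0.35 (limma adjusted p = 3.6e-07 and 2.3e-05), Mapk11 fell by 0.79 (1.8e-07), and Zfat, at -0.01, did not pass (0.95).

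Among the 5 largest rises in Dataset 2 were Ly6a and Ly6c1, deeper genes in LIFR KO 1 and 2, together with Kctd17 (following), Cbx7 (mixed) and Prickle1 (held). Ly6a was at 0.0532 and 0.0755 CPM in the NMuMG control and 37.5 and 35.2 CPM with the knockdown (log2 fold change 7.80 ± 0.12, limma adjusted p = 2.2e-12). Ly6c1 went from 0.106 and 0.151 CPM to 21.2 and 19.9 CPM (6.50 ± 0.14, limma adjusted p = 1.4e-11). Both groups were apart in both genes. At levels this low the fold change depends on the 0.1 CPM added before the log and understates the ratio. Kctd17, an adaptor of ubiquitin ligases, was at 0.0709 and 0.0001 CPM, the latter the lowest value in the table, and rose to 25.3 and 26.5 CPM (7.64 ± 0.21, limma adjusted p = 9.6e-11). The Polycomb protein Cbx7 rose from 0.124 and 0.0567 CPM to 15.4 and 16.0 CPM, and the planar polarity gene Prickle1 from 0.0886 and 0.0001 to 7.96 and 8.08 CPM.

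Of the members that fell in Dataset 2, Scn8a changed most, from 98.5 and 99.1 CPM in the NMuMG control to 10.98 and 11.05 CPM (-3.15 ± 0.03, limma adjusted p = 1.8e-13). Gpd1, an enzyme of glycerol metabolism, fell from 26.1 and 25.7 CPM to 4.714 and 4.603 CPM. Ndrg1, a hypoxia-responsive gene, fell from 143 and 142 CPM to 41.1 and 41.1 CPM, and Syngr1 from 8.94 and 8.28 CPM to 2.51 and 2.46 CPM. The log2 fold changes of these 3 genes were -2.45, -1.79 and -1.75. Lgals2, another deeper gene in LIFR KO 1 and 2, fell from 106 and 101 CPM to 37.9 and 38.7 CPM, so the deeper genes did not all move one way in Dataset 2. Of the 15 deeper genes tested there, 12 were called higher and 2 lower, with a median log2 fold change of 0.53. Beside them, 194 of 285 members were higher and 43 lower, and 42.1% and 38.0% of all genes.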

How the data were processed

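Both tables were deposited as CPM. As the study's methods and the submitters' processing notes give it, the authors trimmed reads, aligned them to GRCm38 (mm10) with Bowtie2 and quantified genes in Partek, and used DESeq2 for their own tests. Dataset 2 also held the authors' group means and their ratio (fold change), which were not used. Taking a library's lowest listed CPM as 1 read, the depth would be 16031859 to 46901675 reads, but a fraction of 0.861 to 0.878 of the values were whole multiples of it (tolerance 0.05), so no count test was run. Tests used limma (version 3.58.1; R version 4.3.3) with its trend option on log2(CPM + 0.1), over genes whose mean in the fitted libraries reached 0.5 CPM, with Benjamini-Hochberg adjustment. The test was tried on simulated data. The GC correction subtracted a loess curve (span 0.3) over transcript GC content in GENCODE M21. Starts in Dataset 1 matched GRCm38 for 302 of 13870 genes, so its bins are in the file's own coordinates and printed positions come from the annotation by gene identifier. Dataset 2 was matched by the same identifiers. The genes named were the most abundant following (10) and held (up to 10) members, the 6 lowest deeper members, the 5 largest rises and falls past the threshold in Dataset 2, the genes beside each bound, and the most abundant following and held members (up to 2 each) of each role list; others were chosen after their values were seen, and some genes that the rule names are not reported here. The members, role lists and tests were chosen with earlier results of these data known. Replicate numbers of the controls and the KO clones did not pair the samples (correlations of deviations -0.18 to -0.03, and 0.05 in Dataset 2).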

Additional observations from a re-analysis of the deposited data

Results flagged for a closer look

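Among the 4 control lines, 3 of 43 named genes held a value far from the other three, by the gap to the nearest value over the whole range in Dixon's test, where chance alone flags about 1 in 20 groups. Cyrib was at 113 CPM in CT clone 3 and 98.1 to 100.4 CPM in the others (ratio 0.835). Mapk11 had 21.9 CPM in the line without Cas9 and 14.4 to 14.8 CPM in the CT clones (0.932). Ddx23 was at 140 CPM in CT clone 1 and 167 to 171 CPM in the others (0.890).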

How the results depend on the processing

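In FAM3C KO, 0 members were called under rescaling, another pseudocount, both filters, the 0.05 threshold, GC correction and the replicate block, 14 when the 2 groups were fitted alone, and 0 to 2 when 1 sample was left out (2 without LIFR KO 3). The count of members called in LIFR KO, a description, was 180, and became 106 under median-ratio rescaling, 117 at 0.05, 5 with the 2 groups alone, 6 after GC correction and 0 with the replicate block. It ran from 0 to 229 when 1 sample was left out: 0 without CT clone 2 or CT clone 3, 5 without the unaltered line, 15 without CT clone 1, 51 without FAM3C KO 1, 39 without FAM3C KO 3 and 12 without LIFR KO 2. In Dataset 2 the count of 237 ran from 219 to 236 without 1 sample, was 242 with the replicate block and lay between 233 and 238 under the other settings. Member medians moved beyond the SD of the control lines without centring, to -1.06 in LIFR KO 2, -0.56 in LIFR KO 3 and -0.57 in the double KO, and after GC correction, to -0.48, 0.018 and 0.00040. In LIFR KO 1 the median stayed between -0.50 and -0.43 under all settings run. Held members numbered 5 with a wider range counted as following and 18 with LIFR KO 1 alone, a setting added after seeing the data, which gave 39 deeper members. After GC correction the medians of LIFR KO 3 and the double KO thus lay just above zero instead of below it. The other shifts have no tested cause. With 1 sample per clone, differences between clones of 1 genotype carry no test.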

Other observations

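In FAM3C KO 2, several distal chromosome 15 members stood far below the other two FAM3C KO clones, noticed after the values were seen. Lrrk2 was at 0.48 CPM there and at 24.5 and 24.3 CPM in FAM3C KO 1 and 3. Cbx7 was at 2.04 CPM, against 13.8 and 19.03 CPM. Ly6a, Ly6c1 and Ly6e were at 10.8, 22.04 and 24.7 CPM in that clone. The last 3 of these genes are near neighbours. The median over all members in FAM3C KO 2 was 0.00. Outside chromosome 15, the highest chromosome median after GC correction in any library was that of chromosome 18 in FAM3C KO 2, at 0.47, similar in size and opposite in sign to the distal chromosome 15 medians of LIFR KO 1 and 2.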
